A study of Mus musculus with 6 samples.

Results

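The regions described here were the open-chromatin windows of the mouse genome that lay in gene deserts. They were all windows whose centre was outside every protein-coding gene body and more than 50 kb from the nearest end of any protein-coding gene, which gave 10766 of 55056 windows (19.6%). They were spread over 1925 stretches between neighbouring protein-coding genes, called deserts below. A desert held between 1 and 47 of these windows (median 3), and 500 deserts held a single one. The median distance to a protein-coding gene end was 160.3 kb and the largest was 2205 kb. Of the windows, 8774 lay in no annotated gene of any kind, 1768 lay in a long noncoding RNA (lncRNA) gene, 111 in a pseudogene and 113 in another noncoding entry, so the set was free of protein-coding genes but not of all transcription units.

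Bulk ATAC-seq, in which the Tn5 transposase cuts and tags accessible DNA, was performed on 50000 cells per library from mouse small intestinal organoids, epithelial cultures that grow in a basement membrane gel. All organoids were of a single line, line26, labelled wild type and Lgr5GFPDTR/+, from a female mouse of unstated age; the allele places a GFP and diphtheria toxin receptor cassette at the stem cell gene Lgr5 and was carried by both groups. The 3 treated libraries came from organoids given 3 µM CHIR99021, a GSK3 inhibitor, and 1.5 mM valproic acid, a histone deacetylase inhibitor, for 3 days, then ENR medium (EGF, Noggin, R-spondin 1) for a day, then 100 ng/mL RANKL for 6 days. The 3 control libraries came from organoids in ENR medium for 6 days. The labels do not say whether the controls also received CHIR99021 and valproic acid, and the submitters' names for these libraries begin with CVENR, which is not explained. Replicates were numbered experiments with a single line, so the spread between them does not cover differences between mice.

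Transposase-accessible sites far from genes include enhancers, DNA segments bound by transcription factors that act on a promoter by looping over distance. Developmental regulators and signalling genes often sit beside large deserts that carry many such elements. RANKL binds the receptor RANK on intestinal epithelium, signals through NF-kB and drives the differentiation of microfold (M) cells, which carry luminal antigen across the epithelium over lymphoid follicles. The comparison of RANKL with control asks which of these remote sites gained or lost accessibility in that setting.

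The libraries held 322173 to 976881 counts over all windows. A count of 3, the smallest treated as detectable, was worth 3.95 to 12.2 CPM, that is, counts scaled to 1000000 counts in the tested windows with edgeR library sizes. Of 10 epithelial marker genes, 9 had a window within 1 kb of a gene end, with summed levels of 549 to 571 CPM in controls and 504 to 632 CPM with RANKL. None of the 10 haematopoietic and none of the 7 endothelial markers had such a window. A window was present for 1 of 10 mesenchymal markers (5.66 to 17.1 CPM in controls, 12.2 to 17.3 CPM with RANKL) and for 2 of 6 neural markers (14.1 to 40.8 and 16.3 to 34.6 CPM summed). For each of these lists the summed levels of the groups overlapped.

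Sequence could be read only where a RefSeq promoter entry of GRCm38.p6 covered a whole window. This was the case for 48 windows, tested or not, all at the start of noncoding genes. Of these, 6 passed the test for change with RANKL, all of them lower. Over all windows beyond 50 kb, tested or not, 7.92% passed in either direction. Among the tested windows beyond 50 kb, 25.04% passed as lower and 13.1% as higher. Of all 21618 tested windows in the genome, 20.1% passed in either direction and 10.0% as lower. In bulk organoids, fewer cells with a site open and less opening of the site per cell cannot be told apart. Of the 6, 3 are printed because they carry a searched motif word and 1 because it showed the largest fall among them. Capitals mark a match to the AP-1 word TGANTCA or the NF-kB word (GGGA and CC with any 4 bases between), searched on both strands. Each run is printed 5′ to 3′ on the strand of the noncoding gene.
Gm32067 start, chr13:78483308-78483507, plus strand, no word found: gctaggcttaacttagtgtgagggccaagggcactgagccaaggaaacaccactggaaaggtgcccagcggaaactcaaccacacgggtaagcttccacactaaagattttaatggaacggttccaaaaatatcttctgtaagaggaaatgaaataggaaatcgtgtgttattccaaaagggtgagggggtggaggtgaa
Gm41865 start, chr19:54154638-54154837, plus strand, AP-1 word: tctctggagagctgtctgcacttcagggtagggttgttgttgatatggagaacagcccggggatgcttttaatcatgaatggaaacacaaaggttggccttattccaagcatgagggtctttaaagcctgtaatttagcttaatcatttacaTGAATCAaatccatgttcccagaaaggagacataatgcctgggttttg
Gm34820 and Gm41301 start, chr15:37135705-37135904, minus strand, AP-1 word: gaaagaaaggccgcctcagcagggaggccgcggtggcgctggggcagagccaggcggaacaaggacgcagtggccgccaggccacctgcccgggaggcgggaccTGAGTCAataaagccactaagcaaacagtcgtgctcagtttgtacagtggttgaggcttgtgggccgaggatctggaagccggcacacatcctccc
Gm38516 start, chr15:56765203-56765402, plus strand, NF-kB word: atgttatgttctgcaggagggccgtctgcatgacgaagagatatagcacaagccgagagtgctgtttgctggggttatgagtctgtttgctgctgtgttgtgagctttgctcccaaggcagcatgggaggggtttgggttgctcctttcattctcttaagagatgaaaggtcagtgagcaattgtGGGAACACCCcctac

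In the central 200 bases of all 32851 promoter entries the AP-1 word occurred in 5.48% and the NF-kB word in 14.9%. The HNF4 word CAAAGTCCA occurred in 0.317% of the entries. For GATA factors the word AGATAA was searched, with matches in 7.80%. For ONECUT factors the word was ATCAAT, found in 5.18% of entries, and the TCF word CTTTGAT occurred in 2.45%. These last 4 words had no match in the 6 windows. A match is a run of letters and not evidence of binding.

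The Gm32067 window, 284.5 kb from Nr2f1, a nuclear receptor gene, had 31.5, 43.4 and 31.1 CPM in the controls and 4.07, 0 and 8.19 CPM with RANKL. The fitted log2 ratio of RANKL to control was -2.81 ± 0.57 (SE; edgeR quasi-likelihood test, Benjamini-Hochberg adjusted p = 2.72e-05), the scale of all ± values below for windows and sums. This call was lost after thinning. The sum over all 29 windows of its desert, between Nr2f1 and Arrdc3, rose (0.59 ± 0.15, edgeR adjusted p = 0.00169). At the Gm41865 start, 105.8 kb from Adra2a, an adrenergic receptor gene, the controls had 55.9, 63.1 and 62.2 CPM and the RANKL libraries 4.07, 17.3 and 11.5 CPM (-2.35 ± 0.40, edgeR adjusted p = 1.83e-07). The Gm38516 window, 70.8 kb from Has2, which encodes a hyaluronan synthase, fell from 133, 129 and 147 CPM to 102, 69.3 and 68.8 CPM (-0.82 ± 0.19, edgeR adjusted p = 0.000321). The window 97.0 kb from Grhl2, an epithelial transcription factor gene, had 60.1, 55.3 and 82.0 CPM against 52.9, 17.3 and 36.05 CPM (-0.88 ± 0.30, edgeR adjusted p = 0.0193), and this call was lost with DESeq2, after thinning, without control replicate 3 and without RANKL replicate 2 or 3. In all 4 the lowest control was above the highest RANKL library.

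MicroRNA hairpins lay within 3 kb of 15 of the windows (18 hairpins), 8 of which were tested and 2 called, both higher; among all tested windows beyond 50 kb 38.1% were called. The first, chr6:31061850-31062049, was 710 bp from the hairpin of Mir29a and 1073 bp from that of Mir29b-1, a pair whose main products share a seed, the bases 2 to 8 that pair with target mRNAs. The second, chr16:77602639-77602838, was 2989 bp from Mirlet7c-1, a member of the let-7 family of differentiation-associated microRNAs. The mature sequences from RefSeq (GRCm38.p6) show the shared and the distinct seed in capitals.
mmu-miR-29a-3p: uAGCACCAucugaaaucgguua
mmu-miR-29b-3p: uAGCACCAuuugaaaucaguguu
mmu-let-7c-5p: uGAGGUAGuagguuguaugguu

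The window beside Mir29a had 14.3, 15.8 and 5.66 CPM in controls and 28.5, 37.5 and 52.4 CPM with RANKL (1.66 ± 0.43, edgeR adjusted p = 0.00149), and it was not called without RANKL replicate 3. The window beside Mirlet7c-1, in the desert between Usp25 and Cxadr, rose from 7.16, 1.32 and 8.49 CPM to 36.6, 72.1 and 65.5 CPM (3.52 ± 0.47, edgeR adjusted p = 2.23e-11). RANKL libraries were above all controls in both, and neither was tested after thinning. MicroRNA levels were not measured. The window near Mir17 and Mir18, of a cluster known for driving proliferation, had 102, 124 and 127 against 89.5, 72.1 and 93.4 CPM and did not pass the test (-0.43 ± 0.19, edgeR adjusted p = 0.0952).

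Most windows beyond 50 kb were weak. Their median level was 5.66 to 10.0 CPM in the controls and 8.14 to 11.5 CPM with RANKL, against 16.97 to 17.2 and 16.3 to 18.02 CPM for the other 44290 windows. Only 2236 (20.8%) reached the level needed for a test, against 43.8% of the other windows. That cutoff was 15.44 in at least 3 libraries, scaled to 1000000 counts over all windows. It is therefore not on the CPM scale used elsewhere, which is based on counts in the tested windows. Median level fell with distance, from 10.8 CPM at 50 to 100 kb through 9.17 CPM (100 to 250 kb) and 7.34 CPM (250 to 500 kb) to 6.33 CPM beyond 500 kb.

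Of the 2236 tested, 293 rose with RANKL and 560 fell (edgeR, adjusted p at or below 0.05), which is 38.1% of those tested; over all 21618 tested windows the shares called were 20.1% in either direction, 10.0% higher and 10.0% lower. Passing the filter in 1 group only makes a difference likely: 192 tested windows passed in all controls and in no RANKL library, and 243 the reverse. In all controls but not in all RANKL libraries 686 passed, and 431 the reverse. Counted over all windows, tested or not, the called share was 7.92% beyond 50 kb and 7.86% elsewhere. Among the 768 that passed in all 6 libraries, 195 fell and 26 rose. All RANKL libraries lay above, or all below, the controls in 49.6% of the tested windows (33.4% over all tested windows).

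**Figure D1:**
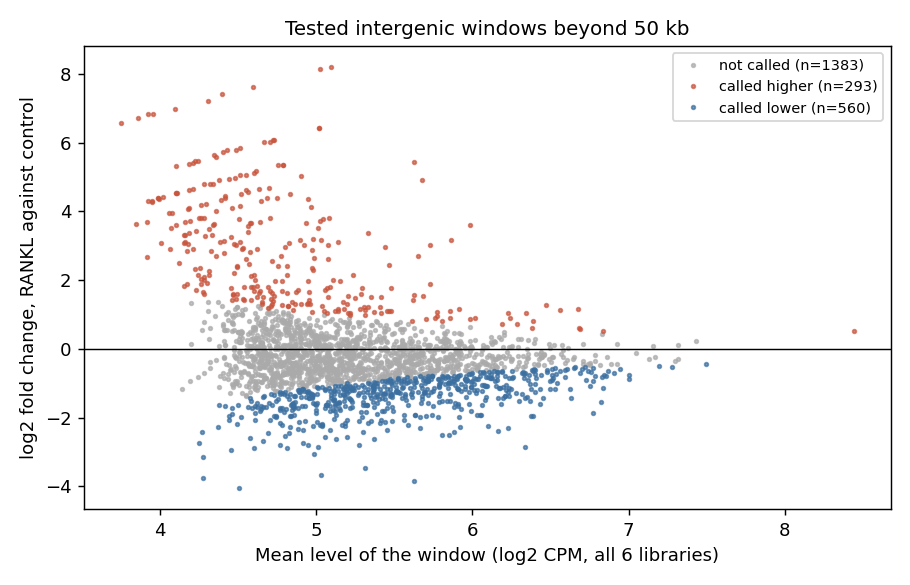
Log2 fold change (RANKL against control) against mean level in log2 CPM for the 2236 tested windows beyond 50 kb, 1 point per window. Red points (293) were called higher and blue points (560) lower; the rises spread to large values at low levels, and most calls at high levels are falls.

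The balance of rises and falls differed between settings. DESeq2, without the level filter, called 545 higher and 296 lower (64.8% of calls higher, against 34.3% above), and edgeR without the filter called 670 and 542 (55.3% higher). Counts in 2-kb windows around the same centres gave 1312 higher and 895 lower (59.4% higher), or 671 and 747 (47.3% higher) after a level-dependent offset. The share of calls that were higher was 48.3% without control replicate 3, 45.2% without RANKL replicate 1 and 46.2% without RANKL replicate 2, with more windows tested in each, and 41.9%, 37.5% and 34.9% without control replicate 1, control replicate 2 and RANKL replicate 3, with fewer. Loess offsets on the same 2236 windows gave 197 higher and 554 lower (26.2% higher). RLE scaling gave 297 and 556.

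Falls were concentrated among strong sites. All tested windows were divided by mean level into 4 classes of equal size. In the strongest class, 153 of 317 windows beyond 50 kb fell (48.3%) and 17 rose (5.36%), whereas 7.92% of the other windows of that class fell and 9.59% rose. In the weakest class, 190 of 788 rose (24.1%) and 91 fell (11.5%), against 14.6% and 6.58% of the others. The median fold of a called rise was 6.18 and that of a called fall 2.44, against 2.29 and 2.37 elsewhere. The median rise was the same with the 10 windows that had no control count placed at their lower bound. Moving 10 of 293 values hardly affects a median, so this does not bear on the other folds. Of the 293 rises, 69 had 3 or fewer control counts in all, where a fitted fold depends on the prior count of the fit.

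**Figure D2:**
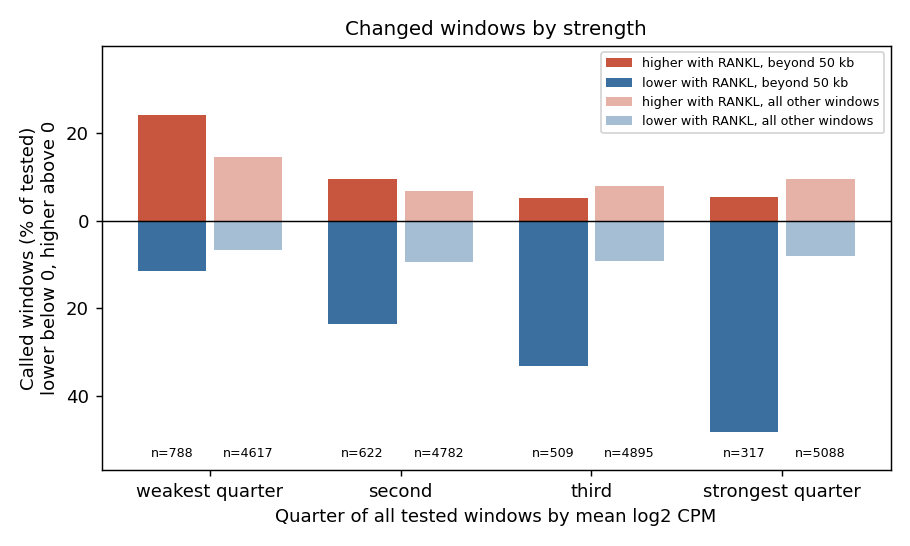
Percentage of tested windows called higher (bars above 0) or lower (bars below 0) with RANKL, in 4 classes of equal size of all tested windows by mean log2 CPM, for windows beyond 50 kb (dark) and all other windows (light), with the number tested under each bar. Falls beyond 50 kb grow from 11.5% in the weakest to 48.3% in the strongest class, while the other windows stay between 6.58% and 9.41%.

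Distance changed the picture gradually. Windows just inside the rule (50 to 60 kb) had 23 rises and 52 falls among 259 tested, and those just outside (40 to 50 kb) had 29 and 64 among 332. Of the tested windows, 33.3% were called at 50 to 100 kb, 37.8% at 100 to 250 kb, 41.2% at 250 to 500 kb and 60.2% (35 higher, 68 lower, of 171) beyond 500 kb. As a share of all windows in the bin, however, calls went from 8.85% and 8.57% down to 6.57% and 6.21%, since only 10.3% of windows beyond 500 kb were tested. The median fold of a rise was 3.57, 6.37, 8.32 and 13.97 in the same order, and the median control count behind a rise, summed over the 3 controls, fell from 18 to 4.

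The share of a library's counts that fell in windows beyond 50 kb was 12.01%, 11.5% and 11.6% in the controls and 11.1%, 11.7% and 11.8% with RANKL (exact permutation test, two-sided, p = 0.70, n = 3 per group, smallest possible p = 0.10). Within this total the distance bins moved in opposite directions. At 50 to 100 kb the share was 4.55% ± 0.12 (SD, n = 3) in controls and 4.07% ± 0.09 with RANKL, and at 100 to 250 kb 4.26% ± 0.08 and 4.11% ± 0.12. From 250 to 500 kb it was 1.77% ± 0.05 and 1.95% ± 0.09, and beyond 500 kb 1.12% ± 0.06 and 1.44% ± 0.09. The groups did not overlap in any of the 4 bins, and each exact permutation test gave p = 0.10 (0.10 after adjustment over the 4 bins).

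**Figure D3:**
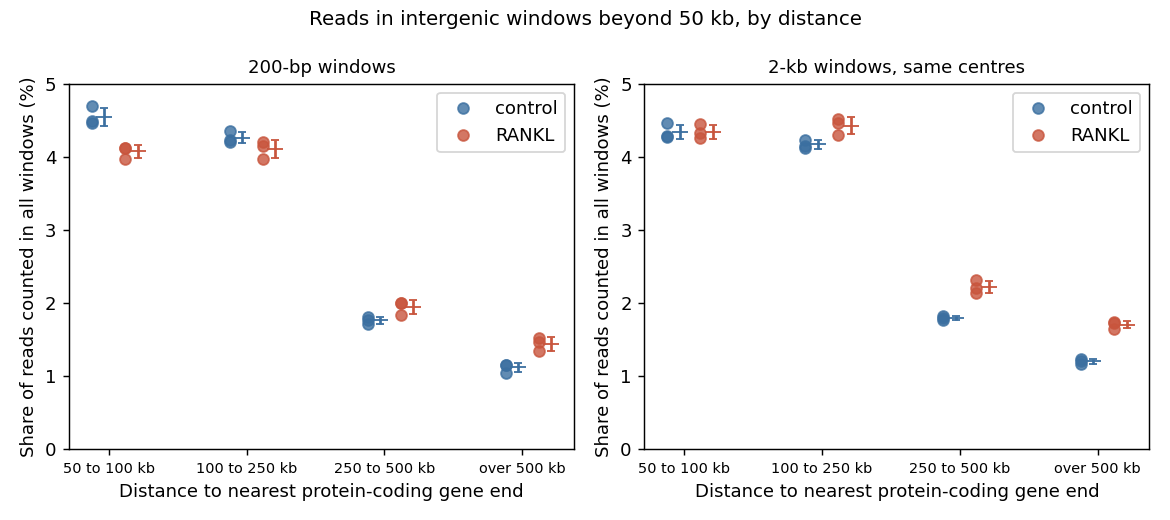
Share of the reads counted in all windows (%) that fell in windows beyond 50 kb, by distance to the nearest protein-coding gene end, for 200-bp windows (left) and 2-kb windows (right). Points are libraries (3 controls in blue, 3 RANKL in red) and bars the mean ± SD; beyond 250 kb every RANKL library lies above every control in both panels.

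Counts in 2 kb around the same centres gave a different total: 11.8%, 11.3% and 11.4% in controls against 12.4%, 13.0% and 12.7% with RANKL (exact permutation p = 0.10). Reads were thus less focused on the window centres. The central 200 bp held 41.0% ± 0.80 (SD, n = 3) of the 2-kb reads beyond 50 kb in the controls and 32.3% ± 1.52 with RANKL, without overlap (exact permutation p = 0.10). In the other windows the shares were 40.3% ± 0.52 and 35.9% ± 1.33, and within 1 kb of a gene end 38.9% ± 0.38 and 38.2% ± 1.22, with overlapping groups (exact permutation p = 0.40). The ratio of the central share beyond 50 kb to that in other windows was 1.02 ± 0.007 in controls and 0.900 ± 0.019 with RANKL, again without overlap (exact permutation p = 0.10). A lower central share lowers 200-bp counts, and its part in the falls was not tested. Of the 35 windows in the clusters described below, 29 were also called in the same direction on 2-kb counts. The 2-kb counts include the central reads by which these windows were called, so this overlap is only a description.

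Log2 CPM of the tested windows correlated between control libraries with Pearson's r of 0.85 to 0.89 and between RANKL libraries with 0.57 to 0.68, and between the groups with 0.10 to 0.19 (2236 windows sharing library and depth; the filter keeps windows high in a single group). In the other tested windows the values between groups were 0.49 to 0.58.

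The largest well-measured rises were taken from 41 eligible windows (called, at or above the median level of tested windows, groups not overlapping). The strongest rise, at chr12:21520476-21520675, 103.1 kb from Ywhaq, a 14-3-3 adaptor gene, went from 1.43, 2.63 and 2.83 CPM to 114, 141 and 77.0 CPM (5.44 ± 0.45, edgeR adjusted p = 2.56e-29). At chr14:86230626-86230825, 424.6 kb from Diaph3, a formin gene of the actin cytoskeleton, the controls had 5.73, 0 and 5.66 CPM and the RANKL libraries 163, 101.01 and 83.6 CPM (4.93 ± 0.42, edgeR adjusted p = 1.75e-28). No control of either window exceeded 6 CPM. A window 181.3 kb from Dcc, the netrin receptor gene (chr18:72532424-72532623), rose from 14.3, 3.95 and 14.1 CPM to 126, 121 and 128 CPM (3.62 ± 0.31, edgeR adjusted p = 5.00e-28). The next 7, with fitted log2 ratios from 3.17 down to 1.76, were nearest to Adgrl2, Adam6a, Atp6ap1l, Emc2, Spata16, Asb13 and 1700016C15Rik.

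The immunoglobulin loci, which are assembled by recombination in B cells, held several of the windows. In the heavy chain locus 5 of 50 were tested and 2 rose, and in the kappa locus 3 of 21 were tested and 1 rose. The others tested there did not pass. Of all tested windows beyond 50 kb, 13.1% rose, and 8 windows or fewer are too few to compare with this share. In the heavy chain locus (Igh), chr12:113906570-113906769 rose from 8.59, 17.1 and 8.49 CPM to 102, 101.01 and 98.3 CPM (3.02 ± 0.33, edgeR adjusted p = 1.55e-17), and chr12:113688456-113688655 from 0, 1.32 and 5.66 CPM to 28.5, 49.1 and 37.7 CPM (4.34 ± 0.70; with loess offsets 1.64 ± 0.86, edgeR adjusted p = 0.177). In the kappa locus (Igk), chr6:70110789-70110988 rose from 4.30, 3.95 and 0 CPM to 48.8, 49.1 and 49.2 CPM (3.80 ± 0.56, edgeR adjusted p = 1.54e-09). The leukocyte marker Ptprc had no window within 1 kb of a gene end, and the cell source of these reads was not tested. The Igk window and the one of 4.34 in Igh were chosen after their values were seen. The call of that Igh window was also lost after thinning.

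The largest well-measured falls came from 298 eligible windows. The largest, chr17:15939191-15939390, 108.0 kb from Rgmb, a BMP co-receptor gene, had 70.2, 74.98 and 82.0 CPM in controls and 4.07, 8.66 and 3.28 CPM with RANKL (-3.84 ± 0.45, edgeR adjusted p = 5.80e-15). At chr16:68402131-68402330, 781.3 kb from Cadm2, a cell adhesion gene, the values were 109, 124 and 141 CPM against 28.5, 11.5 and 14.7 CPM (-2.85 ± 0.28, edgeR adjusted p = 1.37e-20). The window 1548 kb from Dsel, its nearest protein-coding gene, chr1:113412887-113413086, had 78.8, 68.4 and 105 CPM against 8.14, 0 and 24.6 CPM (-2.52 ± 0.34, edgeR adjusted p = 3.80e-11). The controls of these 3 windows were all above 65 CPM and the RANKL libraries all below 30 CPM. Further falls between -2.51 and -2.29 were nearest to Spry2, Slc10a2, Cntn5, Adra2a, Pde3a, Tlr4 and Adgrl2.

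**Figure D4:**
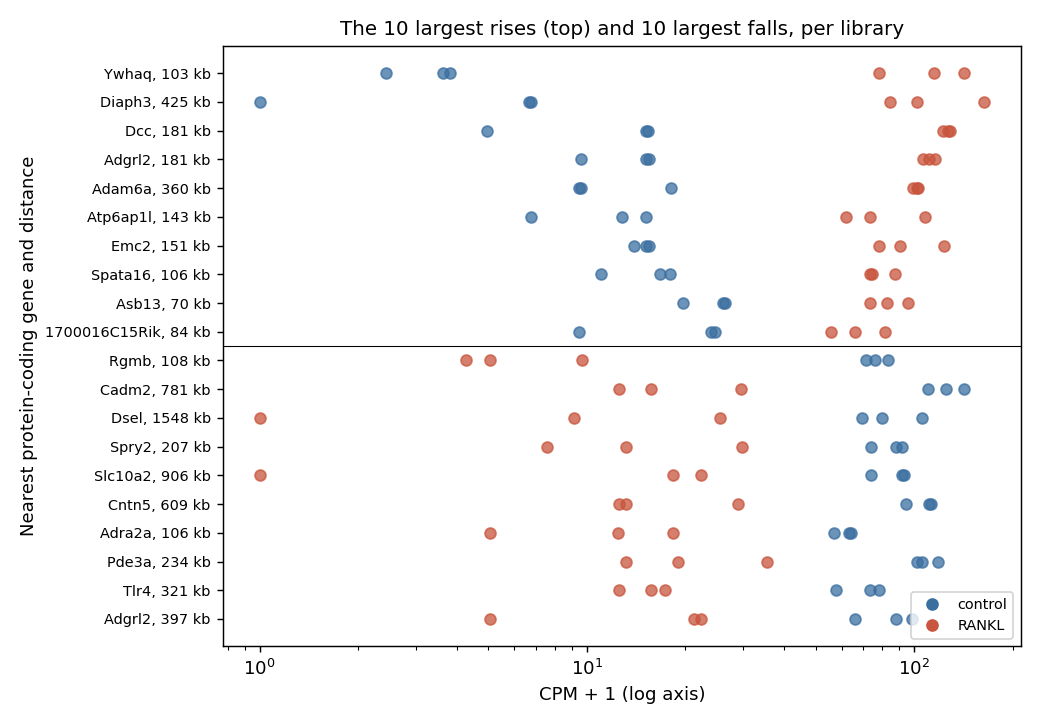
Level of the 10 largest rises (top) and 10 largest falls (bottom) in each library, as CPM plus 1 on a log axis, each row named by the nearest protein-coding gene and its distance. Controls are blue and RANKL libraries red; by the rule of choice no row has overlapping groups, and all 20 kept their call under every alternative analysis of windows.

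The desert between Ttll7 and Adgrl2, a latrophilin receptor gene, held both kinds: chr3:148634319-148634518 rose (3.17 ± 0.31), from 8.59, 14.5 and 14.1 CPM to 106, 109.7 and 115 CPM, and chr3:148418150-148418349 fell (-2.29 ± 0.32), from 97.4, 86.8 and 65.1 CPM to 4.07, 20.2 and 21.3 CPM. In 10 called windows no control had a count. The best covered, chr10:85295289-85295488, 89.6 kb from Btbd11, had 18, 29 and 40 counts with RANKL and was at least 43.7-fold higher, taking 3 counts over the control group as the limit. At chr7:54698003-54698202, 137.1 kb from Luzp2, the counts were 25, 18 and 39 (at least 41.2-fold higher). These 2 were chosen after their values were seen. Most of the 10 calls were lost with loess offsets on 200-bp counts, though not those of these 2.

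The most accessible window beyond 50 kb, chr17:39846748-39846947, lay in the ribosomal RNA pseudogene Rn18s-rs5 (265, 242 and 368 CPM in controls, 513, 442 and 310 CPM with RANKL, overlapping; 0.52 ± 0.14, edgeR adjusted p = 0.00280). This call was lost with DESeq2, after thinning and on 2-kb counts, and without control replicate 1, control replicate 2 or RANKL replicate 1. Reads of the many ribosomal RNA copies cannot be assigned to this one with certainty. Next came chr13:84348095-84348294, 52.2 kb from Tmem161b in the lncRNA gene Gm41011, which had 208, 176 and 223 CPM against 151, 162 and 134 CPM (-0.44 ± 0.16, edgeR adjusted p = 0.0326). This call was lost with DESeq2, without a filter, and without control replicate 1, control replicate 3 or RANKL replicate 3. The window chr3:5860341-5860540, 281.8 kb from Pex2, stood at 160, 137 and 178 against 187, 219 and 154 CPM (0.23 ± 0.16, edgeR adjusted p = 0.334). The farthest called window, 2022 kb from Pcdh17 (chr14:82421369-82421568), rose from 2.86, 3.95 and 0 CPM to 24.4, 34.6 and 34.4 CPM (3.44 ± 0.67, edgeR adjusted p = 9.34e-06); with loess offsets it was 0.89 ± 0.77 (edgeR adjusted p = 0.459), and after thinning or without RANKL replicate 3 it was not tested. In the same desert, 1836 kb from the crypt stem cell gene Olfm4, chr14:81858707-81858906 fell from 109, 114 and 136 CPM to 48.8, 20.2 and 27.9 CPM (-1.95 ± 0.25, edgeR adjusted p = 9.34e-13). The third, chr18:28308894-28309093, 1957 kb from Pik3c3, fell from 32.9, 24.99 and 22.6 CPM to 4.07, 5.77 and 6.55 CPM (-2.19 ± 0.62, edgeR adjusted p = 0.00429). This window was not tested after thinning, nor without control replicate 1 or 2 or RANKL replicate 3.

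Summed over each desert, 1302 of the 1925 could be tested, together with 12647 sums of windows assigned to protein-coding genes. Of the deserts, 274 rose and 245 fell, 39.9% of those tested, against 18.2% of all sums tested (8.62% higher, 9.58% lower). DESeq2 called 223 higher and 161 lower. For 131 of the called deserts, 121 of them higher, no single window had reached the level for a test. A called window was present in 529 deserts and at least 2 in 191, of which 86 had only falls, 22 only rises and 83 both.

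The desert with the most called windows lay between Ndfip2, a ubiquitin ligase adaptor gene, and Spry2, a feedback inhibitor of receptor tyrosine kinase signalling. Of its 10 tested windows, 8 fell and none rose. Most of these 8 calls were lost with DESeq2, after thinning, without RANKL replicate 2 or without RANKL replicate 3. The 15 windows of the desert summed to 546, 565 and 597 CPM in controls and 340, 251 and 280 CPM with RANKL (-0.99 ± 0.10, edgeR adjusted p = 1.64e-14). The sum kept its call in all 12 alternative settings. The windows within 50 kb of Spry2 or in its body also fell in sum (-0.75 ± 0.17, edgeR adjusted p = 0.000325), while those of Ndfip2 did not pass (-0.25 ± 0.12, adjusted p = 0.150). The largest fall of the desert, 206.8 kb from Spry2 in the lncRNA gene Gm35967, went from 73.0, 86.8 and 90.5 CPM to 12.2, 28.9 and 6.55 CPM.

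Between Etnk1 and Sox5, a SOX family transcription factor gene, 6 of 7 tested windows fell and the sum went from 364, 385 and 360 CPM to 194, 176 and 165 CPM (-1.08 ± 0.12, edgeR adjusted p = 5.35e-13). The Sox5 sum fell too (-0.80 ± 0.10, adjusted p = 4.27e-11), and that of Etnk1 did not pass (-0.15 ± 0.15). The largest cluster held 5 of these falls within 82.1 kb (chr6:143479819-143561966), 266.6 to 307.3 kb from the nearer of the genes. Together they had 289, 307 and 252 CPM in controls and 134, 144 and 103 CPM with RANKL.

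A cluster was at least 3 called windows of a desert in the same direction, no more than 50 kb from one to the next with none of the opposite call between. There were 11 clusters with 35 windows, 8 of falls and 3 of rises. Their number was 6, 5, 4 and 5 without control replicate 1, control replicate 2, RANKL replicate 2 and RANKL replicate 3, and 39 on 2-kb counts, so single clusters rest on marginal calls. In 2 clusters, between Rgs18 and Brinp3 and between Gm3985 and Wrn, every window kept its call when any library was left out. In 3, between Ndfip2 and Spry2, Tbc1d1 and Gm38457, and Slc10a2 and Efnb2, no window did.

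Other clusters of falls lay in the deserts beside Id2, Etv1, Has2 and Slc7a11. Beside Id2, an inhibitor of helix-loop-helix transcription factors, 3 windows 113 to 170 kb away summed to 173, 176 and 195 CPM in controls and 57.0, 77.9 and 78.6 CPM with RANKL. Between the ETS factor gene Etv1 and Arl4a the sum went from 152, 191 and 173 CPM to 97.6, 69.3 and 90.1 CPM, and the Etv1 sum fell by 0.67 ± 0.14 on the log2 scale (edgeR adjusted p = 9.07e-05). The cluster 52.4 to 80.3 kb from Has2 contains the Gm38516 start printed above and went from 226, 217 and 238 CPM to 142, 104 and 98.3 CPM. Beside Slc7a11, the cystine transporter gene, 231, 217 and 243 CPM became 126, 98.1 and 131 CPM. In each of these 4 the lowest control sum was above the highest RANKL sum, as the choice of called windows nearly ensures.

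Next to Brinp3, a gene known from the nervous system, a cluster of falls lay in a desert beside a gene whose own sum rose. The 3 windows of the cluster, 138 to 179 kb from Brinp3, fell from 209, 233 and 221 CPM to 77.3, 72.1 and 95.0 CPM, while the Brinp3 sum rose by 2.70 ± 0.25 on the log2 scale (edgeR adjusted p = 3.01e-17). The sum over all 16 windows of that desert did not pass the test (-0.27 ± 0.14, adjusted p = 0.169).

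One cluster of rises lay between Gm3985 and Wrn, a DNA helicase gene. Its 3 windows within 19.4 kb (chr8:33074912-33094350), all in the lncRNA gene Gm39156, summed to 12.9, 21.0 and 5.66 CPM in controls and 159, 127 and 116 CPM with RANKL, a direction that the choice of called windows fixes. The middle window had 1, 1 and 0 control counts and 15, 14 and 24 RANKL counts. The Wrn sum did not pass (0.17 ± 0.20, edgeR adjusted p = 0.615). Between Klf14 and Mkln1, 3 windows in the lncRNA gene Lncpint, a p53-responsive transcript, rose from 32.9, 40.8 and 42.4 CPM to 69.2, 176 and 113 CPM. The Mir29a window lies in the same desert, whose sum rose by 0.43 ± 0.12 (edgeR adjusted p = 0.00705); this call was lost with DESeq2, after thinning, on 2-kb counts, without control replicate 1 and without RANKL replicate 2.

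**Figure D5:**
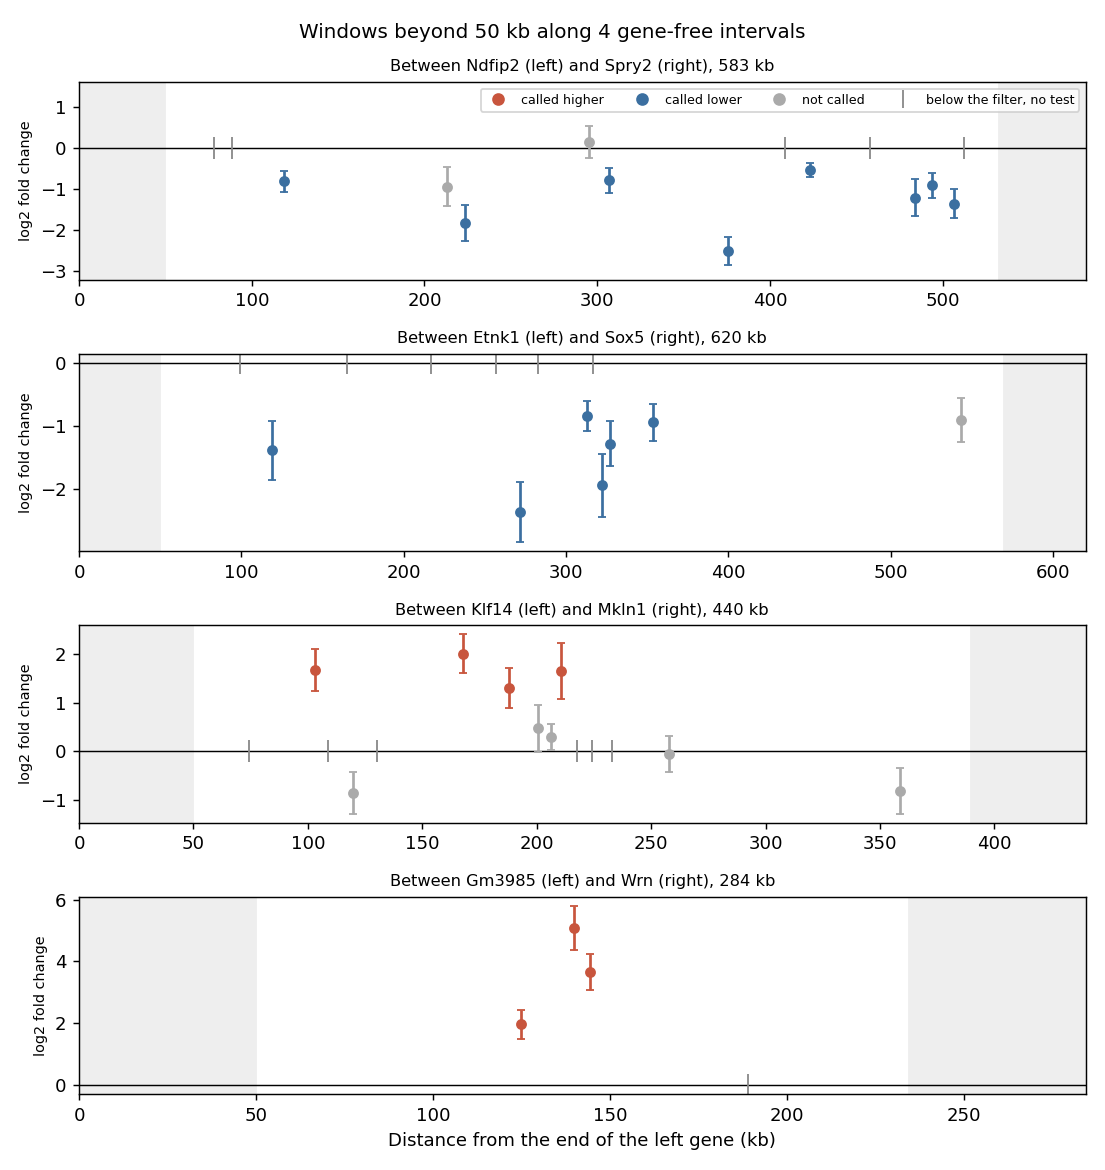
Log2 fold change (RANKL against control, ± SE) of windows beyond 50 kb along 4 deserts, by distance in kb from the end of the gene on the left; grey bands mark the first 50 kb next to each gene. Points are tested windows (red called higher, blue called lower, grey not called) and ticks are windows below the level for a test; the Ndfip2 to Spry2 and Etnk1 to Sox5 deserts hold only falls among their called windows and the lower 2 deserts only rises.

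Long deserts with many falls were found beside other genes. Between Cntn5 and Jrkl (2338 kb) 7 of 9 tested windows fell (sum -0.96 ± 0.10, edgeR adjusted p = 3.22e-14), while the Cntn5 sum rose by 0.70 ± 0.23 (adjusted p = 0.0199). Between Slc10a2, the ileal bile acid transporter gene, and Efnb2, an ephrin gene, 7 of 13 fell and the sum went from 772, 790 and 814 CPM to 587, 515 and 623 CPM (-0.45 ± 0.09). Neither Slc10a2 (0.03 ± 0.19) nor Efnb2 (-0.02 ± 0.12) passed. Beside Klf6, a zinc finger factor gene, 5 of 7 tested windows of the desert fell (sum -0.75 ± 0.10, edgeR adjusted p = 4.38e-10) and the Klf6 sum did not pass (-0.32 ± 0.13, adjusted p = 0.0743). Between Nmbr and Cited2, a transcriptional co-regulator gene, 4 fell and 1 rose of 15 (sum -0.44 ± 0.09), and the Cited2 sum fell by 0.97 ± 0.17 on the log2 scale.

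Zeb2 and Acvr2a flanked a desert with 6 falls among 13 tested windows (sum -0.49 ± 0.09), and Cntnap4 and Mon1b one in which all 5 tested windows fell (-1.12 ± 0.15). Beside Tbl1xr1, 5 fell and 1 rose (-0.31 ± 0.10, edgeR adjusted p = 0.0122, lost with DESeq2, after thinning, on 2-kb counts, without control replicate 1 and without RANKL replicate 2). The desert between Dcc and Mex3c held 3 rises and 3 falls among 8 tested windows and its sum stood at 402, 331 and 420 CPM against 362, 414 and 372 CPM (0.01 ± 0.10, edgeR adjusted p = 0.958), so its windows changed in both directions around a sum that did not pass the test.

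Of deserts with at least 3 windows, the steepest rise was between Dock10, a GTPase exchange factor gene, and Nyap2: 5.68, 3.19 and 2.31 CPM in controls and 69.8, 90.2 and 78.3 CPM with RANKL (4.26 ± 0.41, edgeR adjusted p = 4.14e-16). The Dock10 sum did not pass (0.12 ± 0.59). Between Lrrc7 and Depdc1a the sum rose from 18.2, 7.45 and 6.92 CPM to 98.4, 106 and 142 CPM (3.36 ± 0.28, edgeR adjusted p = 1.89e-19). Rises between 3.47 and 4.05 were found beside Zfpm2, Ercc4 and Zfp804a, with 1 to 4 control counts in each library. The one beside Zfp804a was lost after thinning and not tested without RANKL replicate 3. The steepest falls were between Magee1 and Cypt2 (-2.17 ± 0.37), beside Sox3 (-1.91 ± 0.30), between Slc30a10 and Lyplal1 (-1.84 ± 0.43, lost after thinning and, at -0.40, on 2-kb counts), and between Pcsk1, a prohormone convertase gene, and Ell2 (-1.69 ± 0.19; 179, 173 and 131 CPM against 38.1, 46.2 and 59.7 CPM). Next came the desert between Rad23b and Klf4, a differentiation factor of the epithelium, with 64.7, 49.0 and 39.2 CPM against 31.7, 24.2 and 6.22 CPM (-1.59 ± 0.36, edgeR adjusted p = 0.000477, lost without RANKL replicate 3). The Klf4 sum fell as well (-0.50 ± 0.18, adjusted p = 0.0349).

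Changes of deserts and of the genes beside them were weakly correlated, and beside deserts that rose more genes fell than rose. Of the 12647 gene sums tested, 929 rose and 1091 fell. Over all desert and gene sums tested the shares were 8.62% higher and 9.58% lower. Beside the 245 deserts that fell, 108 of 400 tested flanking genes fell (27.0%) and 16 rose (4.00%). Beside the 274 that rose, 54 of 368 rose (14.7%) and 70 fell (19.0%). Beside the 783 not called, 17.4% fell or rose in the sense of the desert's sign and 10.96% in the opposite sense. Across 1215 deserts the log2 fold change of the desert and the mean of its flanking genes had Pearson's r of 0.17 and Spearman's rho of 0.17, a description over sums that share libraries. Neighbouring called windows within 50 kb of each other had the same direction in 86 of 106 pairs (81.1%) beyond 50 kb and in 486 of 611 pairs (79.5%) elsewhere.

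Genes were also taken from lists by function, and the windows of the deserts beside them counted. Beside 35 genes of intestinal and endodermal transcription factors, 167 windows were tested, 46 fell and 11 rose. This is 34.1% called, near the 38.1% of all tested windows beyond 50 kb. The desert between Pax1 and Foxa2, a pioneer factor of endoderm, had 4 falls among 9 tested windows (sum -0.69 ± 0.11, edgeR adjusted p = 1.02e-07). The deserts on the 2 sides of Myc, a proliferation factor gene, had 3 rises and 2 falls among 18 tested windows. The sum between A1bg and Myc fell (-0.30 ± 0.10, edgeR adjusted p = 0.0227, lost with DESeq2, after thinning, without control replicate 1 or 2 and without RANKL replicate 2). The sum between Myc and Gsdmc (0.17 ± 0.11, adjusted p = 0.313) and that of Myc itself (-0.34 ± 0.19, adjusted p = 0.226) did not pass. Beside Id2 the desert sum fell by 0.62 ± 0.11 on the log2 scale (edgeR adjusted p = 8.29e-06). Between Klf5, a proliferation factor of crypt cells, and Klf12, 3 fell and 1 rose of 13 (sum -0.30 ± 0.10, edgeR adjusted p = 0.0176, lost with DESeq2, after thinning and without control replicate 1 or 2).

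Beside 13 crypt stem cell and Wnt pathway genes, 8 of 26 tested windows fell and 2 rose (38.5% called, near the 38.1% above). The Rgmb desert carried 3 falls: the window at 108.0 kb named above, one at 174.1 kb with 81.6, 64.5 and 50.9 CPM against 24.4, 14.4 and 26.2 CPM (-1.59 ± 0.32, lost after thinning), and one nearer to Gm51425 (-1.43 ± 0.44, lost with DESeq2, after thinning, without control replicate 1 and without RANKL replicate 1 or 2). Its sum fell by 0.77 ± 0.11 on the log2 scale (edgeR adjusted p = 9.30e-09), as did the sums beside the stem cell regulator Lrig1 (-0.67 ± 0.15) and Lef1, a Wnt-responsive transcription factor gene (-0.53 ± 0.13, lost after thinning). Of the 11 tested desert sums of this list, 4 fell and 2 rose. The sum between Pcdh8 and Olfm4 rose (1.63 ± 0.37, edgeR adjusted p = 0.00038), and that between Olfm4 and Pcdh17 did not pass (-0.02 ± 0.10). Of the 7 tested windows in these 2 deserts beside Olfm4, 2 rose and 3 fell. Beside 23 growth factor pathway genes 8 rose and 7 fell of 43 (34.9% called): 2 and 2 of 5 beside the Notch ligand gene Jag1, 2 and 1 of 9 beside Bmp2, 1 and 1 of 5 beside Fgfr2 and 1 and 1 of 2 beside Tgfb2.

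Few windows beyond 50 kb lay beside genes of the RANK, NF-kB and M cell list: 16 were tested, 3 rose and 2 fell (31.2% called). The desert sums beside Nfkbiz (-0.18 ± 0.13, edgeR adjusted p = 0.348), Tnfrsf11b (-0.09 ± 0.16, adjusted p = 0.769) and Nfatc1 (-0.45 ± 0.26, adjusted p = 0.241) did not pass. Beside Fabp5, a fatty acid binding protein gene, 1 rose and 1 fell of 2. Beside Tnfrsf11b, which encodes the RANKL decoy receptor osteoprotegerin, chr15:54171653-54171852 at 78.9 kb rose from 5.73, 3.95 and 14.1 CPM to 61.0, 37.5 and 22.9 CPM (2.41 ± 0.55, edgeR adjusted p = 0.000253, lost after thinning). Beside Nfkbiz, an inducible NF-kB regulator, a window at 120.1 kb rose (2.90 ± 0.68; 1.43, 5.26 and 2.83 against 20.3, 26.0 and 29.5 CPM; lost with loess offsets on 200-bp or 2-kb counts, and not tested without control replicate 1 or 2 or without RANKL replicate 3) and one at 235.3 kb fell (-1.95 ± 0.50; 41.5, 34.2 and 28.3 against 12.2, 0 and 13.1 CPM). The calls of both Nfkbiz windows were also lost after thinning. The gene of RANK itself, Tnfrsf11a, had a single window in its desert, below the level for a test. Beside secretory and tuft cell genes 1 rose and 3 fell of 7 (57.1% called). Sucnr1, the succinate receptor of tuft cells, had 2 falls among 3 tested windows (desert sum -0.76 ± 0.19, edgeR adjusted p = 0.00116, lost after thinning and without RANKL replicate 3). Beside Tac1, which encodes substance P, 1 rose and 1 fell of 4. Beside 5 enterocyte genes 3 of 11 tested windows fell and none rose (27.3% called), and all 3 falls were beside Apob, the apolipoprotein of chylomicrons. Of the 5 tested desert sums of this list, 1 rose and 1 fell. The rise was between Tmprss15 and Ncam2 (0.99 ± 0.21, edgeR adjusted p = 0.000185), where none of the 16 windows was tested singly.

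Windows in lncRNA genes were somewhat more often testable (512 of 1768, 29.0%) than those in no annotated gene (1687 of 8774, 19.2%), and 35.2% and 39.0% of the tested ones were called. At the starts of noncoding genes, 138 windows touched a promoter entry, 56 were tested, 13 fell (23.2%) and 2 rose, against 25.04% lower among all tested windows beyond 50 kb. The rises were in Gm30262, 87.1 kb from Phlda1 (17.2, 28.9 and 31.1 against 73.2, 83.7 and 67.2 CPM; 1.55 ± 0.31, edgeR adjusted p = 1.17e-05), and at D130051D11Rik, 52.9 kb from Wnt7b, a Wnt ligand gene (71.6, 92.1 and 76.4 against 109.8, 136 and 119.6 CPM; 0.59 ± 0.19, edgeR adjusted p = 0.0125, lost with DESeq2, after thinning, on 2-kb counts, without control replicate 1 and without RANKL replicate 2). Among the falls were Gm31674 beside Meis1 (71.6, 67.1 and 70.7 against 24.4, 31.7 and 34.4 CPM; -1.14 ± 0.29, lost after thinning) and Gm32624, 537.2 kb from N6amt1 (152, 149 and 127 against 69.2, 86.6 and 50.8 CPM; -1.15 ± 0.20, edgeR adjusted p = 2.18e-07).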

How the data were processed

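ATAC-seq was compared between 3 RANKL and 3 control libraries, grouped by their labels. The authors deposited raw counts in windows of 200 bp and, for 2-kb windows around the same centres, a score; its values fitted a natural log of count plus 1 that was standardized in each library, and undoing this gave 2-kb counts no more than 0.0084 from whole numbers. Per the submitters' processing notes the genome was mm10 and the tools, with no role given, included DESeq2 1.34.0, MACS2 2.2.7, BWA 0.7.17, Picard and fastp 0.20.1. The sources used here do not give the choice of windows, any shift of reads to the transposase cut, or any removal of duplicates. Duplicates counted as separate reads would overstate precision.

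Positions of protein-coding and noncoding genes came from RefSeq (GRCm38.p6, no strand). All windows were fitted together with edgeR 4.0.16 in R 4.3.3 (TMM, filterByExpr, robust quasi-likelihood, Benjamini-Hochberg, threshold 0.05); desert and gene sums were fitted in a second table. SE is the absolute log2 fold change over the root of F. The windows test was tested on simulated data. Shares were compared by exact permutation over libraries. Named windows were the 10 largest rises and falls among called windows with level not below the median of tested windows (log2 CPM) and groups not overlapping, the 3 strongest and the 3 farthest called; named deserts were the 10 with most called windows, the 5 largest rises and falls of the sum with at least 3 windows, and clusters of at least 4 windows; from each gene list up to 4 flanking genes with most called windows. Clusters of 3 windows, windows beside microRNAs or listed genes, windows at noncoding starts, immunoglobulin windows and windows without control counts were named after their values were seen. Members, lists and rules were chosen with earlier results of these data known. Alternatives were DESeq2 1.42.0, RLE factors, no filter, thinning, a replicate block, 2-kb counts, loess offsets, other distances and leaving out each library. P-values measure the spread between experiments with 1 organoid line.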

Additional observations from a re-analysis of the deposited data

How the results depend on the processing

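Counts of windows beyond 50 kb moved with the processing: 293 higher and 560 lower became 545 and 296 with DESeq2, 670 higher without a filter, 70 and 189 after thinning to the smallest library, 1312 and 895 on 2-kb counts, 671 higher on 2-kb counts with loess offsets (chosen after seeing the data), and 352 lower beyond 100 kb; leaving out a library gave 201 to 532 higher and 375 to 578 lower, 532, 476 and 451 higher without control replicate 3, RANKL replicate 1 and RANKL replicate 2, and 375 lower without RANKL replicate 3. Desert sums went from 274 higher and 245 lower to 161 lower with DESeq2, 154 and 146 after thinning and 545 higher on 2-kb counts. The 11 clusters became 7 at 25 kb between windows, 20 at 100 kb, 39 on 2-kb counts (the last chosen after seeing the data) and 4 to 12 without a library. The difference in the share of reads (-0.12 percentage points) turned to 0.35 beyond 100 kb (exact permutation p = 0.20), 1.18 on 2-kb counts (p = 0.10), 0.033 without control replicate 1 and 0.099 without RANKL replicate 1 (-0.26 to 0.099 over all libraries left out); on 2-kb counts the bins at 50 to 100 kb and 100 to 250 kb turned to 0.0012 and 0.25. The Pex2 window changed sign on 2-kb counts (-0.022), and the sum between Dcc and Mex3c after thinning (-0.019), on 2-kb counts (-0.017), without control replicate 2 (-0.10) and without RANKL replicate 2 (-0.05), from -0.10 to 0.062 over all libraries left out; neither was called. The cause was not tested. Both groups carry experiment numbers 1 to 3, and whether same-numbered libraries shared an experiment is not known. Their deviations correlated at -0.03, 0.01 and -0.01, so no shared effect was seen, but this cannot exclude pairing. The main fit had no block. With a replicate block 271 windows were higher and 485 lower, and 250 deserts higher and 221 lower. The block gave 7 clusters, and the Rn18s-rs5 (edgeR adjusted p = 0.0546) and Tmem161b (edgeR adjusted p = 0.114) windows were not called. The 20 largest rises and falls kept their call in every window setting, while of 35 cluster windows 17 kept it with DESeq2, 7 after thinning (22 no longer tested) and 19 to 32 without a library. Depth limits weak sites: 8530 of 10766 windows beyond 50 kb could not be tested.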

Other observations

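Some sites below the level for a test showed opposite patterns in the raw counts. The window 2169 bp from the hairpin of Mir467h, between Stt3b and Gadl1, had 5, 9 and 10 counts in the controls and 0 in each RANKL library. The window 2083 bp from Mir28b, between F2rl3 and Isx, had counts of 0, 2 and 0 in control libraries against 5, 10 and 11 in RANKL libraries. Beyond 50 kb, 336 windows had no count in any control and 78 none in any RANKL library. The untested windows together took 4.67% ± 0.28 (SD, n = 3) of counts in controls and 5.86% ± 0.52 with RANKL, and the tested ones 7.03% ± 0.05 and 5.71% ± 0.13 (no overlap in either; exact permutation p = 0.10 for each, the smallest possible). The filter uses these counts, so the split is a description.

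The share of tested windows beyond 50 kb that were called ranged over chromosomes with more than 40 tested from 21.3% on chromosome 19 (47 tested, 3 higher, 7 lower) to 45.5% on chromosome 12 (132 tested, 27 higher, 33 lower). On chromosome X, 16 of 59 fell and 5 rose.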
